A study of Mus musculus with 16 samples.

Results

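The cells described here were 122 endothelial-like cells found among cell barcodes that the deposited count matrix holds but the deposited cell table leaves out. The matrix listed 22699 barcodes in 16 libraries, of which 1144 had no line in the cell table. Of those 1144, 740 carried at most 10% of their unique molecular identifiers (UMIs, each counting 1 captured RNA molecule) on mitochondrial genes and at most 5000 detected genes. A cell was taken as endothelial where it was among these 740 and had at least 1 UMI in at least 3 of 6 genes, namely Pecam1, Cdh5, Kdr, Fabp4, Ly6c1 and Aqp1. The 122 cells were 16.5% of the 740 and 0.538% of all barcodes, and they are called endothelial cells from here on. The cells were thus selected on measured UMIs of those 6 genes, so every difference in expression between them and other cells is given as a description with no test.

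The study sorted muscle stem cells (MuSCs) from male H2B-GFP+/-;rtTA+/- mice on a C57Bl/6J background and profiled them by 10x Genomics 3' single cell RNA-seq. In these mice, doxycycline given during embryonic development loads nuclei with a GFP-tagged histone that later divisions dilute, so that label retaining cells (LRCs, GFP high) and nonLRCs (GFP low) could be sorted apart. There were 2 young (3 months) and 2 aged (20 months) mice, and cells were taken either directly after sorting (quiescent, 0 h) or after 18 h in horse serum medium on a sarcoma-derived matrix followed by a second sort for live cells (activated). Each of the 8 conditions (age, label class and time) had 2 libraries, named a and b here; the letters order the libraries and name no mouse. All libraries shared the genotype, the doxycycline label and the sort, which kept cells negative for CD31, CD45 and Sca1 and positive for VCAM1 and α7-integrin. That gate bears directly on the cells described, since CD31 is the product of Pecam1 and Sca1 that of Ly6a.

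Endothelial cells line blood and lymphatic vessels, are joined by VE-cadherin (Cdh5) and claudin 5 (Cldn5) and receive vascular endothelial growth factor through Kdr and Flt1. Most vessels of skeletal muscle are capillaries, whose endothelium moves fatty acids from plasma lipoproteins to the fibres: Gpihbp1 holds lipoprotein lipase (Lpl) on the luminal surface, Cd36 takes up the released fatty acids, Fabp4 and Fabp5 carry them inside the cell, and the transcription factors Meox2 and Tcf15 control this program. Muscle capillaries are wrapped by pericytes and lie close to MuSCs.

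The markers outside the rule were those of endothelium. Of 26 further endothelial genes, the cells had a UMI in a median of 11 (range 1 to 23), and 116 of the 122 had a UMI in at least 5. Among the 10826 quiescent cells of the table the median was 0, and 1 cell reached 5. Flt1, a receptor for vascular endothelial growth factor, was detected in 112 of 122 cells, Egfl7, a protein secreted by endothelium, in 92, Cldn5 in 88, and the transcription factor Sox17 in 68. The immune markers Ptprc (CD45), Lyz2, C1qa and Tyrobp were at 0 in every endothelial cell, and Pax7, the defining MuSC transcription factor, was found in 1.

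Few left-out cells lay near the threshold of the rule. Of the 740 left-out cells under both limits, 510 had none of the 6 genes, 97 had 1, 11 had 2, 10 had 3, 20 had 4, 38 had 5 and 54 had all 6. The 11 cells just outside the threshold had a median of 2 UMIs of Fabp4, itself a rule gene, and of 1 of the 26 other endothelial markers, at a median of 2903 UMIs. The 10 cells just inside it had medians of 13 Fabp4 UMIs, 7 other endothelial markers and 2354.5 UMIs. The cell table itself held 2 cells with 3 or more rule genes among its 21555.

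The rule genes are known endothelial genes, and their positions are given from GENCODE M21 on GRCm38 (mm10, the build named in the submitters' processing notes). Pecam1, an adhesion protein of endothelial junctions, lies on the minus strand at chr11:106654217-106750628, Cdh5 on the plus strand at chr8:104101625-104144511, and Kdr on the minus strand at chr5:75932827-75978458. Fabp4 lies on the minus strand at chr3:10204088-10208576, Ly6c1, a surface antigen of capillary endothelium, on the minus strand at chr15:75044018-75048830, and the water channel gene Aqp1 on the plus strand at chr6:55336432-55348555. Fabp4 was found in 121 of the 122 cells, Pecam1 in 113, Ly6c1 in 112, Cdh5 in 102, Aqp1 in 100 and Kdr in 76.

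In the quiescent a libraries, the endothelial cells were close to table cells in depth, with median UMIs of 2706 to 3450 against 2849 to 3050. In young nonLRC quiescent b they were shallower (1352.5 against 3362). The same held in aged nonLRC activated a (4026 against 8405) and young LRC activated a (5096 against 8333). Over all libraries, the endothelial cells had a median of 2852.5 UMIs (range 640 to 14591) and 1271 genes. Quiescent table cells had 3072 UMIs and 1092 genes, and the other 618 left-out cells under both limits had 2242 UMIs. With each cell thinned to 1000 UMIs, which 115 endothelial cells and 10486 quiescent table cells allowed (7 and 340 were shallower), the median was 605 genes in endothelial cells and 513 in table cells. The thinned median was higher in endothelial cells in each of the 5 quiescent libraries that held any, at 594 to 618.5 against 505 to 523. Mitochondrial genes held a median of 2.67% of the UMIs of an endothelial cell and 2.90% of those of a quiescent table cell. Of the barcodes in the matrix, 797 share their sequence with a barcode of another library, and 1 of these was an endothelial cell, whose partner was not.

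The first question was in which libraries the cells were found. Of the 122 cells, 117 came from quiescent and 5 from activated libraries, and they were concentrated in few libraries. Among the quiescent libraries, young LRC a held 49 of 2254 barcodes (2.17%), aged LRC a 11 of 570 (1.93%), young nonLRC a 32 of 2213 (1.45%) and aged nonLRC a 19 of 2197 (0.865%). Young nonLRC b held 6 of 1501 (0.400%), and the other 3 quiescent b libraries held none of 1514, 639 and 818 barcodes. Each of the 4 quiescent a libraries was thus above all 4 b libraries. Among the activated libraries, young LRC a held 3 of 1795 (0.167%), aged nonLRC a held 2 of 2102 (0.0952%), and the other 6 held none.

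A count of 0 allows a share of up to 0.243% in the young LRC quiescent b library (upper end of the exact 95% binomial interval). The same limit was 0.576% in aged LRC quiescent b and 0.450% in aged nonLRC quiescent b. The exact 95% binomial interval was 1.61% to 2.86% for the young LRC quiescent a library and reached up to 0.243% for the b library of the same condition, so that their difference exceeded counting error. Such intervals cover counting error only.

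**Figure D1:**
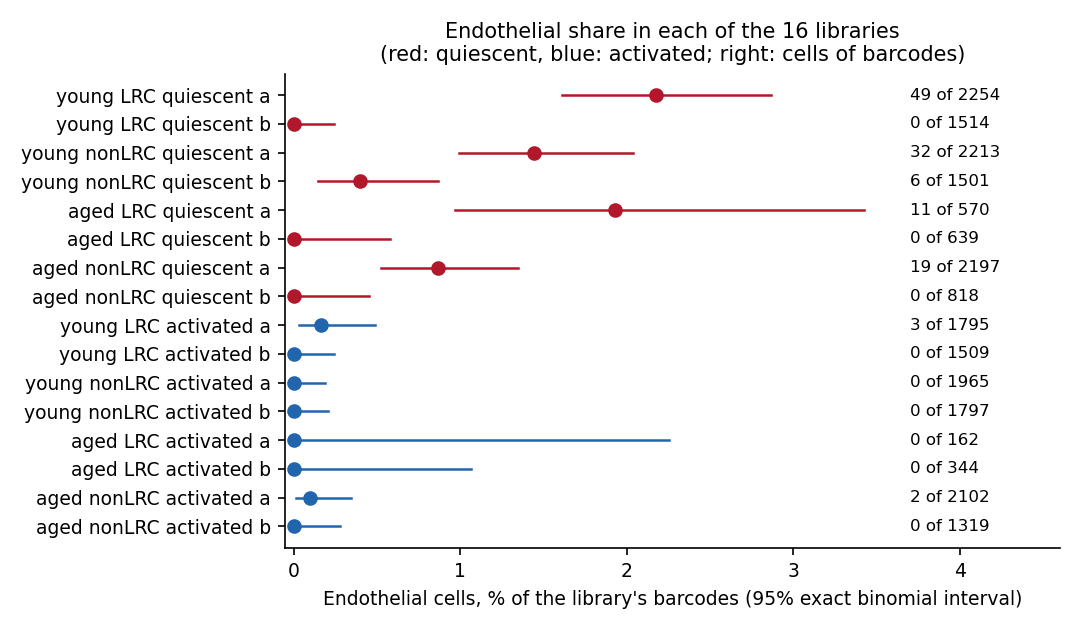
Share of each library's barcodes that are endothelial cells, in percent on a linear axis, for all 16 libraries; points are the observed shares, lines the exact 95% binomial intervals, and the numbers on the right the cells and barcodes. The 4 quiescent a libraries lie between 0.865% and 2.17%, and the activated libraries lie at or below 0.167%.

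The share of barcodes that met the rule was lower after culture. It averaged 0.0328% ± 0.0637 (SD, n = 8 libraries) in activated and 0.852% ± 0.898 (SD, n = 8) in quiescent libraries, a difference of -0.819 percentage points (exact permutation test within age and label class, 2-sided, p = 0.0417; the smallest p this design allows is 0.00154). This call did not survive leaving out any of the 8 activated libraries in turn, which gave exact permutation p-values of 0.0694 to 0.0833, nor the use of left-out cells as the denominator (-14.0 percentage points, exact permutation p = 0.0509). LRC and nonLRC libraries, and both times of an age, drew on the same mice, so libraries are not independent animals. Shares are of captured cells, and a change in the number of other cells would move them as well. Of the rule genes, Kdr had no UMI in the 5 activated cells, Ly6c1 was found in 1 and Aqp1 in 2, and none of the 5 had more than 4 rule genes. Fewer endothelial cells after culture and less RNA of the rule genes in such cells cannot be told apart by this share.

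Neither age nor label class moved the share beyond the spread between libraries. Aged libraries averaged 0.361% and young libraries 0.523% (exact permutation test, 2-sided, p = 0.611), and without the young LRC quiescent a library the sign turned. As a share of left-out cells under both limits, the averages were 4.24% and 13.3% (exact permutation test, 2-sided, p = 0.153). LRC libraries averaged 0.534% and nonLRC libraries 0.351% (exact permutation test, 2-sided, p = 0.653), and that sign turned without either the aged or the young LRC quiescent a library.

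Other left-out cell types were also more numerous in the quiescent a libraries, as were left-out cells as a whole, and blood-borne RNA was higher there. Of the other left-out cells under both limits, 87 had a UMI in 3 or more mural markers (pericytes and smooth muscle), all of them in quiescent libraries, 71 in the a and 16 in the b libraries. Of 133 with 3 or more fibro-adipogenic markers, 95 were in quiescent a, 33 in quiescent b and 5 in activated libraries, although aged LRC quiescent b held more (14) than a (11). Of 108 with 3 or more Schwann cell markers, 83, 20 and 5 were in the same classes of library. These cell types, too, were thus found mostly in quiescent a libraries, but left-out cells under both limits were more numerous there in any case. In the aged LRC, aged nonLRC, young LRC and young nonLRC conditions these totals were 68, 151, 145 and 76 in the quiescent a libraries. In the quiescent b libraries they were 32, 17, 16 and 28, in the same order. Endothelial cells, counted in these totals, were 16.2%, 12.6%, 33.8% and 42.1% of them in a and 0%, 0%, 0% and 21.4% in b. Whether the share of any other type differed was not tested. In table cells, hemoglobin RNA stood at 24.5, 18.0, 86.8 and 47.3 CPM (UMIs of a gene per 1000000 UMIs) in the aged LRC, aged nonLRC, young LRC and young nonLRC quiescent a libraries and at no more than 0.555 CPM in the quiescent b libraries. Fabp4 in table cells stood at 7.92, 22.2, 19.2 and 10.8 CPM in the same a libraries, at 3.07 CPM in young nonLRC b and at 0.555 to 2.27 CPM in the other quiescent b libraries. The part of the other cell types, hemoglobin RNA, free Fabp4 RNA and library preparation in the difference between a and b libraries was not tested.

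Levels of genes were then compared between endothelial cells, table cells and other left-out cells of the same library, in the 5 quiescent libraries with at least 5 endothelial cells. These held 117 of the cells. Values are CPM of UMIs summed over the cells of a class in a library, with hemoglobin UMIs kept out of the total, and means are over these 5 libraries. The endothelial sums held between 11959 (young nonLRC b, 6 cells) and 179869 UMIs (young LRC a), so that in young nonLRC b 1 UMI was worth 84 CPM. Of 3424 genes at 50 CPM or more in either class, 846 (24.7%) were at least 2-fold higher in endothelial than in table cells and higher in all 5 libraries, and 524 (15.3%) were lower by the same rule. The counts for gene lists below are to be read against these background shares. A gene under 50 CPM in 1 class entered only through the other class. This filter thus favors higher calls in lists of endothelial genes and lower calls in lists of MuSC genes.

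By ratio to table cells, Fabp4, a rule gene, stood first. Unlike the means over the 5 quiescent libraries, this ratio pooled the cells of all libraries, quiescent and activated. Almost all endothelial cells were quiescent while the table cells included activated ones, so the ranking mixes cell class with culture. Fabp4 was at 2.8 CPM in all table cells and averaged 12.7 CPM in table cells of the 5 quiescent libraries. The 20 genes with the highest ratio of CPM over all table cells, among those at 200 CPM or more, were Fabp4, 4 hemoglobin genes, Aqp1, Ly6c1, Cd36, Flt1, Rgs5, Gpihbp1, Ly6a, Iigp1, Timp4, Tspan13, Cldn5, Cdh5, Sparcl1, Adgrf5 and Ctla2a. All but the hemoglobin genes were higher in endothelial cells in 5 of 5 libraries. Hemoglobin was carried by few cells: 2 cells, 1 in aged LRC quiescent a and 1 in young LRC quiescent a, held 99.3% of its 16629 UMIs in endothelial cells, and the cells with fewer than 10 hemoglobin UMIs held it at 85.1 CPM.

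Fabp4 was at 24176 CPM in the endothelial cells of aged LRC a, 23016 in aged nonLRC a, 17836 in young LRC a, 19845 in young nonLRC a and 33448 in young nonLRC b. In table cells of the same libraries it averaged 12.7 ± 7.94 CPM (SD, n = 5). Fabp4 is a rule gene, so the choice of the cells favors this gap and the shares of cells below. Per cell, Fabp4 ranged from 0 to 66568 CPM around a median of 19263. At 1000 UMIs per cell, 97.4% of endothelial cells and 0.772% of quiescent table cells had a Fabp4 UMI, the latter being the background share in cells that are not endothelial.

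Most measured genes of fatty acid handling were higher than in table cells (7 of 10). Cd36 was at 2641, 2483, 2431, 2660 and 2759 CPM in the endothelial cells of the 5 libraries in the order just used, and at 1.44 ± 0.620 CPM (SD, n = 5) in table cells. The endothelial libraries thus lay within a narrow range for this fatty acid transporter. Gpihbp1, the anchor of lipoprotein lipase, was at 1707 ± 874 CPM against 0.873 ± 0.655, and its highest value, 3261 CPM, was that of young nonLRC b with its 6 cells.

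Lpl itself was at 738 ± 186 CPM against 53.1 ± 17.2 in table cells, Fabp5 at 436 ± 152 against 5.16 ± 0.565, Tcf15 at 384 ± 32.2 against 1.71 ± 0.430 and Meox2 at 207 ± 128 against 0.133 ± 0.182 (SD, n = 5 each). The 7 higher genes of the fatty acid list include Fabp4, a gene of the rule, and none of the 10 was lower, with a median log2 ratio of 6.65 against 0.40 over all genes. The fatty acid transport proteins Slc27a1 and Slc27a4, which are listed with them, had no UMI in any of the 122 cells. Angptl4, a secreted inhibitor of lipoprotein lipase, averaged 125 ± 111 CPM against 207 ± 35.1 in table cells, and the sign differed between libraries.

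**Figure D2:**
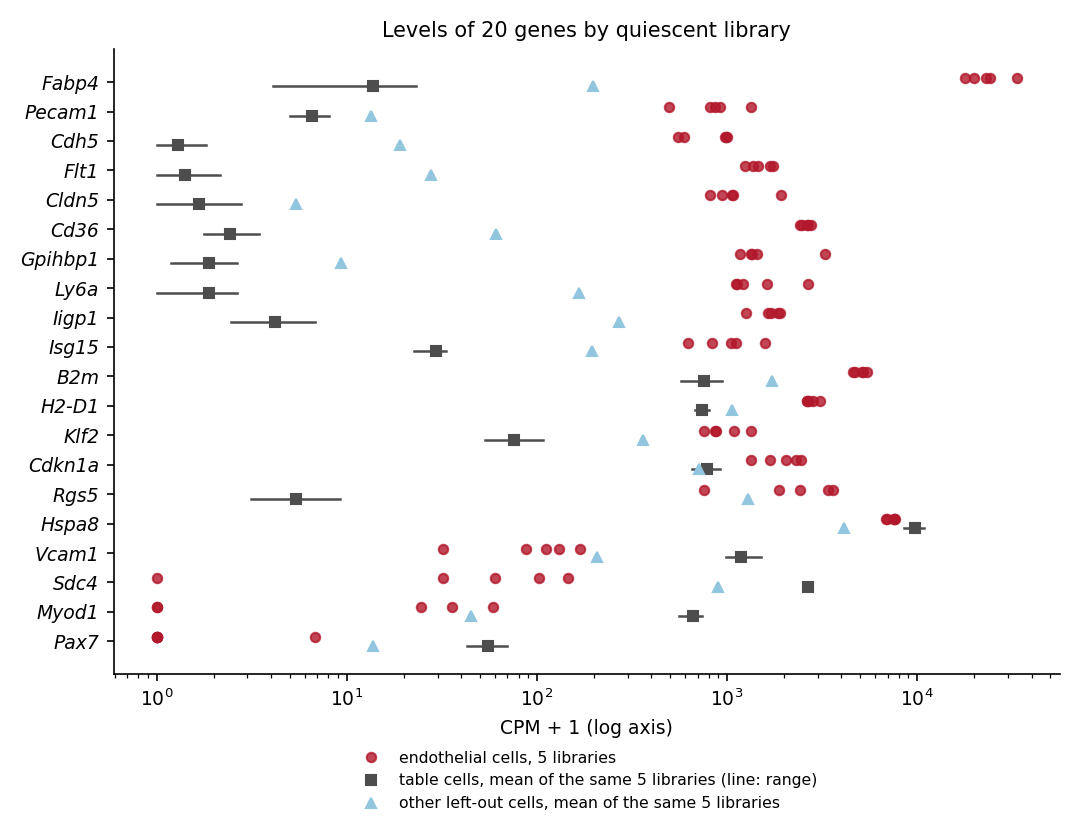
CPM plus 1 on a log axis for 20 genes; red points are endothelial cells of each of 5 quiescent libraries, grey squares the mean of table cells of the same libraries with their range, and blue triangles the mean of other left-out cells. Fabp4, Cd36 and Flt1 lie above 1000 CPM in endothelial cells of every library, while Sdc4, Myod1 and Pax7 lie below table cells.

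By vessel type, most of the cells carried capillary markers, and the rule favors such cells, since Ly6c1 and Fabp4 are abundant in capillary endothelium. Of 12 capillary genes a cell had a median of 7, and 98 of 122 cells had at least 5. All 11 measured capillary genes were higher than in table cells, a count that the filter at 50 CPM favors. Rgcc, a cell cycle regulator of capillary endothelium, was found in 97 cells at 1449 ± 269 CPM, Timp4, a metalloproteinase inhibitor, in 88 at 1307 ± 627 CPM, and Car4, a membrane carbonic anhydrase, in 36 at 227 ± 121 CPM (SD, n = 5).

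Arterial genes formed a smaller share. At least 5 of 14 were detected in 31 cells, 26 of which also had 5 or more capillary markers, and the number of markers detected also depends on the depth of a cell. Of 9 measured arterial genes, 7 were higher than in table cells and none lower. Cxcl12, a chemokine, was at 899 ± 479 CPM against 10.5 ± 2.72, Mecom at 218 ± 53.1 CPM against 2.54 ± 0.738, Stmn2 at 185 ± 70.1 CPM against 0.231 ± 0.284, and the Notch ligand Dll4 at 125 ± 28.5 CPM against 0.129 ± 0.136 (SD, n = 5). The gap junction gene Gja5 was found in 11 cells and the kinase gene Bmx in 2. The 31 cells with 5 or more arterial markers were spread over all 5 libraries, with 3, 7, 9, 11 and 1 cells in aged LRC a, aged nonLRC a, young LRC a, young nonLRC a and young nonLRC b.

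Venous and lymphatic cells were rare among the cells that met the rule, which may miss such cells where they lack Fabp4, Ly6c1 or Aqp1. At least 5 of 12 venous genes were detected in 3 cells, from 3 libraries: a cell of aged nonLRC quiescent a with all 12 (9897 UMIs), a cell of young LRC quiescent a with 7 and a cell of young nonLRC quiescent a with 7. Ackr1, an atypical chemokine receptor of venules, was found in 4 cells, and the cell with most held 36 of its 71 UMIs. Selp, the adhesion receptor P-selectin, was found in 5 cells, with 39 of 66 UMIs in the cell with most.

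Only 1 of the 122 cells, in young LRC quiescent a, had 5 or more of 8 lymphatic genes. It had 7 of them, held all 84 UMIs of the lymphatic chemokine Ccl21a and all 17 of Mmrn1, and had no Fabp4 UMI and 3 of the 6 rule genes, the fewest the rule allows. Of the general lymphatic genes, Prox1, a transcription factor, averaged 9.62 ± 11.98 CPM against 71.9 ± 6.45 in table cells (SD, n = 5), and Pdpn averaged 58.4 ± 38.5 CPM against 1222 ± 118, so both were lower than in the sorted stem cells of the same libraries.

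**Figure D3:**
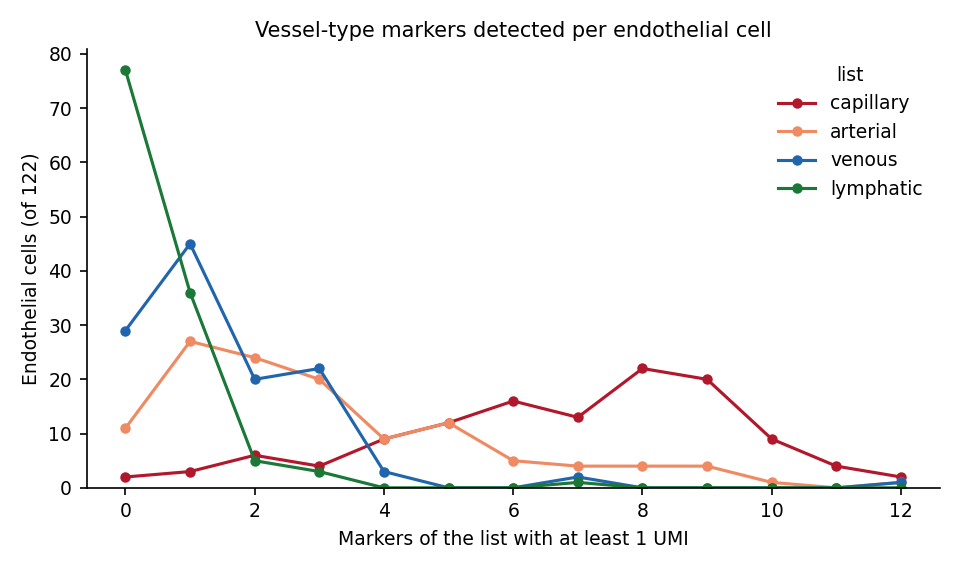
Number of endothelial cells (of 122) by how many markers of each vessel-type list had at least 1 UMI. Capillary counts centre on a median of 7 of 12 genes, the arterial median is 2 of 14, the venous median 1 of 12 and the lymphatic median 0 of 8.

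RNA for the negative markers of the sort gate was present in these cells. Pecam1 (CD31) was at 497, 859, 919, 810 and 1338 CPM in endothelial cells of aged LRC a, aged nonLRC a, young LRC a, young nonLRC a and young nonLRC b, against 5.58 ± 1.19 CPM in table cells. Ly6a (Sca1) was at 1119, 1624, 1122, 1214 and 2676 CPM in the same libraries, against 0.875 ± 0.677 CPM in table cells, and was found in 100 of the 122 cells. Both were thus higher in endothelial cells of every library, Pecam1 being a gene of the rule and Ly6a not, while Ptprc, the third negative marker, was at 0.

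The genes of the positive gate lay the other way or did not separate. Vcam1 averaged 105 ± 50.7 CPM against 1178 ± 198 in table cells and was found in 31 of the 122 cells. Itga7, the α7-integrin gene, averaged 12.3 ± 14.5 CPM against 48.1 ± 11.5, with a UMI in 5 cells. Itgb1, its β1 partner, averaged 562 ± 194 CPM against 291 ± 14.7 and was higher in 4 of 5 libraries. These are RNA levels, and the surface proteins were not measured in the files.

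Muscle stem cell genes were low throughout. All 10 measured genes of that list were lower than in table cells, with a median log2 ratio of -4.73. Sdc4, a surface proteoglycan of MuSCs, averaged 67.3 ± 57.4 CPM against 2666 ± 67.2, Myod1, the transcription factor of activated MuSCs, 23.3 ± 24.6 against 662 ± 74.0, and Pax7 1.16 ± 2.60 against 54.4 ± 9.78 (SD, n = 5). A UMI in 3 or more MuSC markers was present in 11 of the 122 cells, whose median depth was 4620 UMIs. Genes with the largest deficits outside the list were Ankrd1, at 0 against 264 CPM, Asb5, at 32.6 against 2360, the neuropeptide gene Gal, at 150 against 4597, and the metallothionein gene Mt2, at 377 against 9531.

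Markers of pericytes and smooth muscle, the mural cells of vessels, were present in a minority of cells. A UMI in 3 or more of 11 mural markers was found in 25 of the 122 cells (2 of 11 in aged LRC a, 3 of 19 in aged nonLRC a, 15 of 49 in young LRC a, 5 of 32 in young nonLRC a and 0 of 6 in young nonLRC b). These 25 had a median of 5102 UMIs against 2525 in the other 97. Rgs5, a pericyte gene, stood at 6680 CPM in the 25 and at 462 CPM in the 97, where 33 cells had a UMI.

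The endothelial genes were present in those cells, most at a lower level: Fabp4 was at 13898 CPM in the 25 and 21802 in the 97, Cdh5 at 652 and 908, Cldn5 at 893 and 945, and Cd36 at 1925 and 2526, while Rgcc was at 1608 and 1382. The mural list summed to 3638 ± 1663 CPM in endothelial cells, 403 ± 27.4 in table cells and 4416 ± 1478 in other left-out cells (SD, n = 5), its most abundant gene being Rgs5. Whether a barcode with both sets of markers held 1 cell or several was not tested, and doublets were not called.

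Markers of the remaining cell types were sparse. The 11 fibro-adipogenic genes summed to 142 ± 127 CPM (928 ± 156 in table cells, 16920 ± 9841 in other left-out cells), with Pdgfra and Lum at 0 in all 122 cells. The 11 Schwann cell genes summed to 115 ± 92.8 CPM (100 ± 10.2 and 4517 ± 2713), almost all of it Pmp22, with Sox10 and Cdh19 at 0 in all 122 cells. The 11 immune genes summed to 5.78 ± 12.9 CPM (12.5 ± 6.58 and 2813 ± 1466), with 8 of the 11 at 0. Fewer than 3 markers of each of the 6 other lists were found in 89 of the 122 cells.

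Against the other left-out cells of the same libraries, which carry those markers, 493 of 3764 measured genes (13.1%) were higher and 543 (14.4%) lower by the same rule. Higher were 17 of 24 endothelial genes outside the rule, 10 of 11 capillary genes and 7 of 10 fatty acid genes, Fabp4 among the latter. The median log2 ratio was 5.63 for the 24 and -0.02 for all genes. All 6 rule genes were higher too, which follows from the choice of the cells, since the other left-out cells did not meet the rule.

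Antigen presentation and interferon-induced genes were high. B2m, the light chain of MHC class I, was at 4692, 5436, 5205, 5133 and 4599 CPM in the 5 libraries in the order used above, against 752 ± 164 CPM in table cells (SD, n = 5). The heavy chains H2-D1 and H2-K1 averaged 2782 ± 191 against 740 ± 59.9 and 1608 ± 296 against 389 ± 45.2 CPM, and the immunoproteasome subunit Psmb8 312 ± 102 against 14.8 ± 5.14 CPM. Of 14 measured genes of the list, 10 were higher and none lower. The MHC class II genes on it, Cd74, H2-Aa, H2-Ab1 and H2-Eb1, were each found in 2 of the 122 cells. The class I genes H2-D1 and H2-K1 are similar in sequence, so the split of reads between them may be uncertain.

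Of 19 measured interferon-induced genes, 12 were higher and none lower, with a median log2 ratio of 3.72. The interferon-induced GTPase Iigp1 averaged 1670 ± 256 CPM against 3.19 ± 2.00, the ubiquitin-like modifier Isg15 1044 ± 362 against 28.4 ± 4.06, the transcription factor Irf1 624 ± 187 against 50.7 ± 29.3, and the membrane protein Ifitm3 3632 ± 555 against 1176 ± 175 (SD, n = 5). At 1000 UMIs per cell, Iigp1 was seen in 56.5% of endothelial cells and in 0.210% of quiescent table cells. The other left-out cells lay between, with 269 CPM of Iigp1 and 193 CPM of Isg15 on average.

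**Figure D4:**
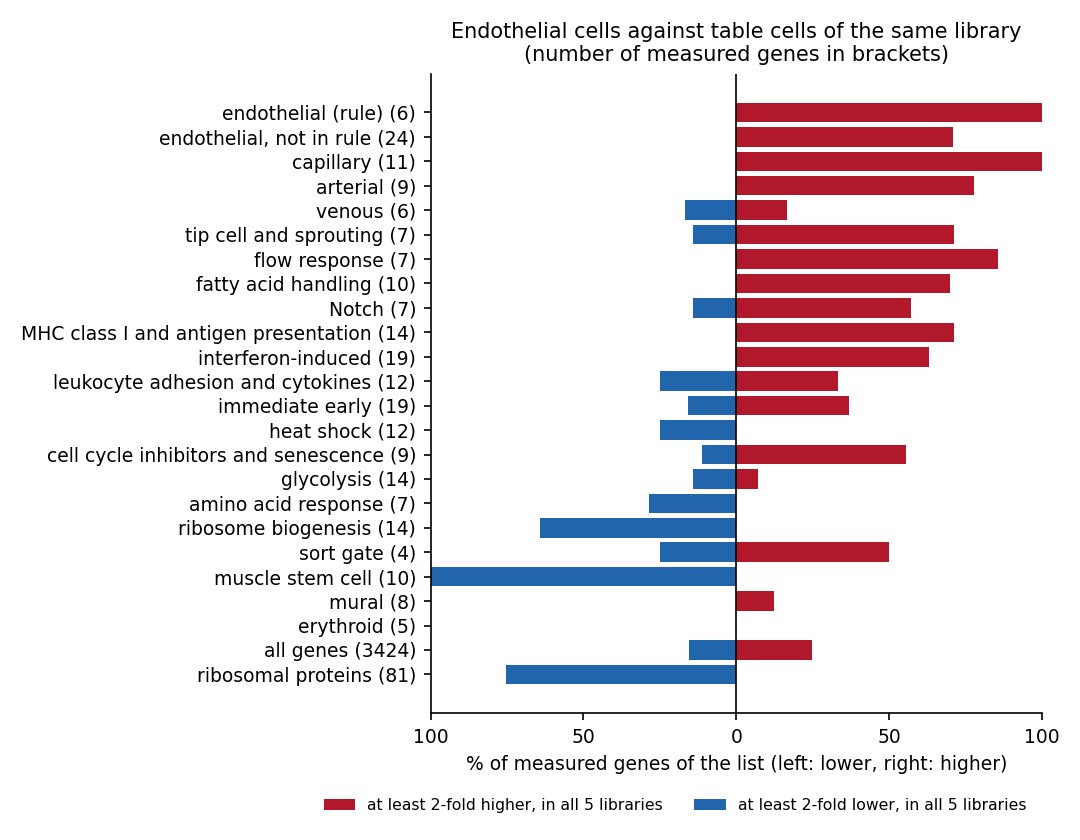
Percent of the measured genes of each list that were at least 2-fold higher (red, right) or lower (blue, left) in endothelial than in table cells and on that side in all 5 libraries, for lists with at least 4 measured genes. All genes together stand at 24.7% higher and 15.3% lower, capillary genes at 11 of 11 higher and MuSC genes at 10 of 10 lower.

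Genes that respond to blood flow and Notch signaling were in part high. Klf2 and Klf4, transcription factors induced by shear stress, averaged 982 ± 233 against 74.7 ± 22.0 and 1202 ± 583 against 425 ± 63.9 CPM, and 6 of 7 measured flow genes were higher. Of 7 measured Notch genes, 4 were higher (Notch1, Dll4, Hes1 and Nrarp) and 1, the nuclear effector Rbpj, was lower. Hes1, a Notch target, averaged 668 ± 253 CPM against 78.6 ± 26.6. With other left-out cells as the comparison, 3 of 8 flow genes were higher and 1 lower, and 4 of 7 Notch genes were higher and 1 lower.

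Of 7 measured sprouting genes, 5 were higher than in table cells and 1 lower. Set against other left-out cells, 3 of 8 were higher and 1 lower. The sprouting list summed to 3523.6 ± 831 CPM in endothelial and 3722.8 ± 1512.5 CPM in other left-out cells (SD, n = 5), so its level did not separate the 2. The tip cell markers Apln and Esm1 were found in 2 and 1 of the 122 cells and Angpt2 in 13. The basement membrane genes Col4a1, Col4a2 and Sparc averaged 408 ± 194, 373 ± 114 and 1807 ± 621 CPM against 118 ± 24.2, 22.4 ± 7.24 and 390 ± 101 in table cells. Of the 18 cell cycle genes, Mki67, Cdk1, Ccnb1, Ccna2 and Birc5 had no UMI in any of the 122 cells, and Top2a had one in 4. The list summed to 363 ± 109 CPM against 173 ± 8.26 in table cells, most of it Pcna, the sliding clamp of DNA replication and repair. Pcna was found in 55 cells at 226 ± 114 CPM against 64.5 ± 12.4 (SD, n = 5), higher in 5 of 5 libraries, and was the 1 gene called higher of the 2 measured.

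Of 12 measured adhesion and cytokine genes, 4 were higher and 3 lower. Icam1 and Icam2, ligands for leukocyte integrins, were higher (713 ± 412 against 22.9 ± 10.5 CPM and 229 ± 211 against 0.0962 ± 0.0881), as were the chemokine gene Cxcl10 (130 ± 69.7 against 30.6 ± 17.8) and Nfkbia, an inhibitor of NF-κB (3456 ± 806 against 1009 ± 301). The chemokine genes Cxcl1 and Ccl7 were lower (741 ± 119 against 4702 ± 1995 CPM and 7.32 ± 9.65 against 128 ± 37.8), as was Vcam1. Sele, the cytokine-induced E-selectin, was found in 2 cells. The cell cycle inhibitors Cdkn1a and Cdkn1c averaged 1961 ± 457 against 787 ± 102 and 503 ± 120 against 48.8 ± 33.8 CPM, Igfbp7, a secreted protein of vessels, 2477 ± 682 against 51.9 ± 20.4, and Cdkn2a had no UMI in any cell. Of 9 cell cycle inhibitor genes measured against other left-out cells, 3 were higher and 1 lower.

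Genes of dissociation stress were present in both classes. Of 19 measured immediate early genes, 7 were higher (among them Dusp1 and Ier3) and 3 lower (Fosl1, Egr2 and Myc), with a median log2 ratio of 0.77. Myc averaged 21.9 ± 22.1 CPM against 505 ± 46.5. Of 12 heat shock genes, none was higher and 3 were lower (Hspe1, Hspd1 and Hspa5), and Hspa8 averaged 7312 ± 375 CPM against 9729 ± 1069.

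Most ribosomal protein genes and most ribosome biogenesis genes were lower in endothelial cells than in table cells of the same libraries. Of 81 measured ribosomal protein genes, 61 were lower and none higher, and the genes together summed to 119506 ± 10845 CPM against 261808 ± 12226 (SD, n = 5). Of 14 measured ribosome biogenesis genes, 9 were lower and none higher. Ncl, the nucleolar protein nucleolin, averaged 600 ± 273 CPM against 1532 ± 279. Against other left-out cells, 1 of 81 ribosomal protein genes was lower and none higher. CPM are shares of a total, and the median log2 ratio of all measured genes to table cells was 0.40.

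The age comparison was made over libraries, in the quiescent endothelial cells of 2 aged (30 cells) and 3 young libraries (87 cells). The libraries of an age came from 2 mice and the files do not tie a library to a mouse, so that the 2 aged libraries may share a mouse, at least 2 of the 3 young libraries do, and the p-values of the age and interaction tests may be too small. This comparison did not use values that chose the cells by age. A cell of either age still needed a UMI in at least 3 of the 6 rule genes. No gene passed edgeR's quasi-likelihood test at an adjusted p under 0.05: 0 of 1459 genes tested (0%), with 77 at an unadjusted p under 0.05. DESeq2, run on a larger set of 11583 genes, called 0 as well, with 19 at an unadjusted p under 0.05. The count of 0 did not hold under every choice: edgeR called 5 genes without aged LRC a, 8 without young LRC a, 6 without young nonLRC a and 25 without young nonLRC b, each at 1 residual degree of freedom, 0 without aged nonLRC a, and 3 with cells of at least 4 rule genes. On simulated counts of the same design, with 1459 genes of which 200 were changed, the test recovered 170 of the changed genes at a 4-fold and 7 at a 2-fold change, so that a 2-fold change was rarely detectable here. Fold changes in the next paragraphs are log2 of aged minus young with SE, and levels are CPM after TMM scaling.

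The capillary and fatty acid lists had medians near 0 between the ages, with members on both sides. Cd36 was at 3262 and 3031 CPM in aged LRC a and aged nonLRC a and at 3016, 3227 and 3077 CPM in young LRC a, young nonLRC a and young nonLRC b (log2 fold change 0.01 ± 0.24, edgeR adjusted p = 1). Fabp4, a rule gene that also chose the cells, differed by 0.12 ± 0.37 and B2m by 0.05 ± 0.26. For Cd36, Fabp4 and B2m the ages overlapped. Fabp4 was the 1 rule gene above 0, the other 5 lay below, and the median of the 6 was -0.34. Kdr (-0.93 ± 0.31, edgeR adjusted p = 0.704) and Cdh5 (-0.77 ± 0.27, edgeR adjusted p = 0.756) had both aged libraries below all young ones. No rule gene was called, and these genes also chose the cells. Of 10 capillary genes tested, 4 were above 0 and 6 below, with a median log2 fold change of -0.09 and 2 with both aged libraries below all young ones (167 of all 1459 genes), and of 9 fatty acid genes 4 and 5, with a median of -0.15, beside a median of 0.00 over all 1459 genes. Of the 10 antigen presentation and 15 interferon-induced genes tested, medians were 0.00 and 0.02.

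Some genes did not overlap between the ages, although none passed the adjustment. Timp4 was at 1228 and 589 CPM in the aged and at 1854, 1684 and 2425 CPM in the young libraries (log2 fold change -1.21 ± 0.34, edgeR adjusted p = 0.589). Jun, an immediate early gene, was at 2034 and 1623 CPM in the aged and at 3500, 3201 and 2984 CPM in the young libraries (-0.87 ± 0.25, edgeR adjusted p = 0.589). Both lay below all young libraries at 20 months.

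Nr4a2, a nuclear receptor gene of the immediate early list, was at 499 and 733 CPM in the aged and at 130, 281 and 373 CPM in the young libraries (1.53 ± 0.34, edgeR adjusted p = 0.478). Angptl4 was at 307 and 287 CPM in the aged and at 93.8, 78.9 and 0 CPM in the young libraries (1.86 ± 0.53, edgeR adjusted p = 0.589). Over all 1459 genes, 188 had both aged libraries above all young libraries and 167 had both below, so a lack of overlap between 2 and 3 libraries is common here.

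By list, the 12 heat shock genes had 11 values below 0 and a median of -0.33, with Hsph1, a chaperone, at 461 and 589 CPM in the aged and at 1104, 1044 and 1026 CPM in the young libraries. The 19 endothelial genes outside the rule had 15 below 0 and a median of -0.29, and the 5 flow genes 5 below 0 and a median of -0.41. The 5 cell cycle inhibitor genes had 5 below 0 (median -0.54) and the 5 sprouting genes 4 (median -0.76). The 5 arterial genes had 3 above 0 (median 0.50), and the 4 venous genes 2 above and 2 below (median 0.25). Of all 1459 genes, 730 were below 0. In none of these lists was a gene called. Of 4 erythroid genes tested all were above 0, with a median of 2.09, and for each the high value was that of aged LRC a, the library with the cell of 8682 hemoglobin UMIs.

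**Figure D5:**
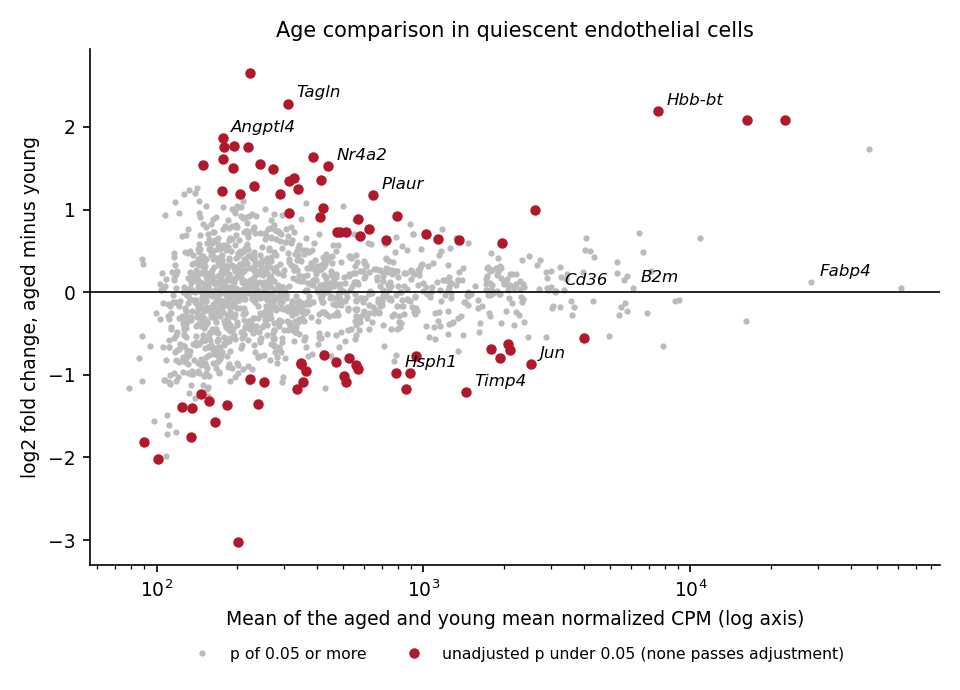
log2 fold change (aged minus young) of 1459 genes in quiescent endothelial cells against their mean normalized CPM on a log axis; red points are the 77 genes at an unadjusted p under 0.05, of which none passed adjustment. Cd36, Fabp4 and B2m lie near 0, and the hemoglobin gene Hbb-bt lies high at the right.

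Whether age acted differently in endothelial cells and in table cells of the same 5 libraries was tested by an interaction of age with cell class, with the library as a block. Of 7554 genes, 7 (0.0927%) passed edgeR's adjusted p of 0.05: Cd74, Cd24a, Tagln and Csrp2 with a higher and Dcn, Slfn5 and Adm with a lower difference in endothelial cells. Without 1 library the count was 17 (aged LRC a), 5 (aged nonLRC a), 4 (young LRC a), 3 (young nonLRC a) or 14 (young nonLRC b). With the cells of 3 or more mural markers left out, Cd74 alone of the 7 passed, the edgeR adjusted p of the others being 0.118 to 1. With table cells thinned to the UMI totals of the endothelial cells, none of the 5 that could be tested passed (adjusted p 0.37 to 0.966), and Cd74 and Dcn were too sparse to test. Most of these rested on few cells. Cd74, the invariant chain of MHC class II, had 23 UMIs in 2 quiescent endothelial cells, 22 of them in 1 cell of aged nonLRC a. Dcn, a matrix gene of fibro-adipogenic cells, had 31 UMIs in 6 cells, 25 of them in 1 cell of young LRC a. Tagln, a smooth muscle gene, had 103 UMIs in 13 cells, 76 of them in aged nonLRC a.

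Slfn5, an interferon-regulated gene of the Schlafen family, was the one found in most cells, with 163 UMIs in 63 cells. It was at 372 and 201 CPM in aged LRC a and aged nonLRC a endothelial cells and at 389, 241 and 198 CPM in young LRC a, young nonLRC a and young nonLRC b, so the ages overlapped. In table cells it was at 2.90 and 6.70 CPM in the aged and at 1.39, 0.427 and 0.496 CPM in the young libraries, with no overlap. Most of these table levels rest on few UMIs of the gene. The table cells held 1388107 UMIs in all in aged LRC a, 6746066 in young nonLRC a and 5204110 in young nonLRC b. The age difference in endothelial cells minus that in table cells was -2.95 ± 0.65 on the log2 scale (edgeR adjusted p = 0.00903), but with table cells thinned to the UMI totals of the endothelial cells the adjusted p was 0.728 and without the cells of 3 or more mural markers it was 0.118.

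The comparison of activated with quiescent endothelial cells could not be tested for genes, since no activated library held 5 of the cells. The 5 activated cells had 7 to 16 of the 26 other endothelial markers and 0 to 2 of the MuSC markers. Pecam1, a rule gene, was found in all 5, which the choice of the cells favors, at 994 CPM in the 2 cells of aged nonLRC activated a and 789 CPM in the 3 cells of young LRC activated a. Kdr was at 0 in both libraries and Ly6c1 was found in 1 cell.

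Capillary genes were scarce in these cells. Gpihbp1, Timp4, Car4, Meox2 and Fabp5 had no UMI in any of the 5, against means of 1707, 1307, 227, 207 and 436 CPM in the quiescent libraries, and Cd36 was at 248 and 121 CPM. Fabp4 was at 621 CPM in the aged and 16865 CPM in the young activated library.

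Some genes were higher in these cells than in endothelial cells of any quiescent library, and were also higher in activated than in quiescent table cells. Asns, asparagine synthetase of the amino acid response, was found in 4 of the 5 cells, at 1118 and 849 CPM, against at most 31.1 CPM in a quiescent library. Gdf15, a stress-induced cytokine, was found in 4 of 5 at 869 and 1759 CPM, against 31.1 to 246 CPM. Slc3a2, an amino acid transporter chain, was at 1366 and 2669 CPM, against 186 to 669 CPM, and the nucleolar gene Ncl at 1739 and 2548 CPM, against 456 to 1087 CPM. In table cells of the same 2 activated libraries, in the same order, Asns was at 270.5 and 251 CPM, Gdf15 at 53.3 and 26.8, Slc3a2 at 1375 and 1111 and Ncl at 4706 and 3975, against quiescent table means of 0.928, 12.4, 403 and 1532 CPM. The endothelial values were thus above those of activated table cells for Asns and Gdf15 and below them for Ncl, while Slc3a2 was higher in 1 of the 2 libraries. These are values of 5 cells in 2 libraries, with no replicate test.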

How the data were processed

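Data were analysed from the deposited UMI count matrix, its gene and barcode lists and the deposited cell table; the mitochondrial fraction the authors deposited in that table was not used. Per the labels, the authors processed the reads with bcl2fastq, Cell Ranger and Seurat on mm10 (versions not given in the sources used here), and the counts are unnormalized UMIs per gene. Mitochondrial percent was recomputed from the matrix; 65 duplicate symbol rows were summed and 2 rRNA-derived genes (0.128% of UMIs) were removed. The condition of a library was taken from its cells in the cell table. Depth ran from 11959 to 179869 endothelial UMIs per tested library. Library shares were compared by exact permutation, and summed counts by edgeR 4.0.16 (quasi-likelihood, filterByExpr, TMM, label class as covariate, Benjamini-Hochberg adjustment) in R 4.3.3, with DESeq2 1.42.0 as an alternative. Scripts were tested on simulated data. The 6 rule genes, genes of set lists, the 20 genes of highest ratio (prior 1 CPM) and called genes at 100 CPM or more are named; genes called in the interaction are all named, and genes with the largest deficits were chosen after their values were seen. Members and lists were chosen with earlier results of these data known.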

Additional observations from a re-analysis of the deposited data

Results flagged for a closer look

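The interaction of age with cell class (edgeR, adjusted p in brackets) gave log2 differences, endothelial cells minus table cells, of 6.54 for Cd74 (0.00011), -5.14 for Dcn (0.00181), 3.19 for Cd24a (0.00408), -2.95 for Slfn5 (0.00903), 2.07 for Tagln (0.0279), -2.46 for Adm (0.03) and 2.00 for Csrp2 (0.0439). With the cells of 3 or more mural markers left out, Cd74 alone of these passed (adjusted p 4.95e-05), and with thinned table cells Cd24a, Slfn5, Tagln, Adm and Csrp2 did not (0.37 to 0.966). The fitted sizes for Cd74 and Dcn depend on the prior count, since libraries at 0 enter them. Cd24a had 34 UMIs in 14 quiescent endothelial cells, Adm 62 in 28 and Csrp2 61 in 32.

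Of 33 sets of values examined for a library far from the others, 8 had one. Chance gives about 1 in 20, but that rate does not hold for lists of few UMIs with most libraries at 0, such as the immune list, or for levels carried by 1 cell, and the rule genes also chose the cells. In the endothelial cells of the 5 quiescent libraries, young nonLRC b (6 cells) was high in the summed level of the 6 rule genes (47328 CPM) and low in that of the mural list (753 CPM). Aged LRC a was low in the cell cycle inhibitor list (3325 CPM) and high in the Schwann list (280 CPM) and in the erythroid list (270199 CPM, from 1 cell). Young LRC a was high in the lymphatic list (861 CPM), most of it in 1 cell. Aged nonLRC a was low in the immediate early list (16168 CPM), and young nonLRC a was high in the immune list (28.9 CPM, all others at 0).

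Outside the cells described, 7 left-out cells with 3 or more of the 6 rule genes exceeded the mitochondrial limit, all in quiescent libraries, and 2 cells of the table had 3 or more of the genes.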

How the results depend on the processing

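No paired analysis was possible because no file ties a library to the mouse numbers of the sample titles; the interaction alone had a block, the library. The activated share stayed below the quiescent share in all alternatives, at -0.941 to -0.630 percentage points with 1 library left out (exact permutation p 0.0139 to 0.0833) and -14.0 of left-out cells. The age difference in share ran from -0.386 to 0.0737 and the label difference from -0.0512 to 0.340 percentage points with 1 library left out, the reversals being 0.0737 without young LRC quiescent a for age, and -0.0163 without aged LRC quiescent a and -0.0512 without young LRC quiescent a for label; of left-out cells the label difference was -2.77 and the age difference -9.07. The age test called 0 genes in 8 alternatives, 1 with every gene of at least 1 UMI, 3 with at least 4 rule genes and 25 with at least 10 cells per library, which is the fit without young nonLRC quiescent b; with 1 library left out it called 0 to 25, at 1 residual degree of freedom. The interaction called 15 genes with RLE scaling, 4 with every gene of at least 1 UMI, 3 with thinned table cells and 3 to 17 with 1 library left out; the causes were not tested. Leaving out cells with mural markers or hemoglobin, or the label term, was chosen after seeing the data. On simulated counts of the age design, 7 of 183 tested genes with a 2-fold change were recovered.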
